A study of Saccharomyces cerevisiae with 12 samples.

Results

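The 9 arginine genes described here were ARG1, ARG3, ARG4, ARG5,6, ARG8, CPA1, CAR1, CAR2 and ARG80 of Saccharomyces cerevisiae, chosen by gene name as enzymes of arginine synthesis, enzymes of arginine breakdown and a DNA-binding subunit of the ArgR-Mcm1 complex. They were 9 of the 7126 genes listed in each of 12 RNA-seq libraries, and all 9 were among the 6844 genes tested. Wild-type cells of the strain BY4741 carried pBY011-YOX1, with YOX1 behind the galactose-inducible GAL1-10 promoter, or pBY011 alone as the control vector. Both were kept in synthetic complete medium without uracil to hold the plasmid. The study's methods do not give the arginine content of this medium. Cells of both vectors were collected untreated in raffinose (0 h), and then 2 h and 4 h into a joint treatment with 2% galactose and 200 mM HU (hydroxyurea). HU inhibits ribonucleotide reductase and stalls DNA replication. Each of the 6 groups had 2 libraries, named as biological replicates. The effects of galactose, of HU and of time in culture cannot be told apart in the comparisons over time. Only the comparison of the vectors isolates what the YOX1 plasmid adds.

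Arginine is made from glutamate by way of ornithine and citrulline, and cells that find arginine outside repress this pathway and break arginine down for its nitrogen. Both responses go through ArgR-Mcm1, in which the MADS-box proteins Arg80 and Mcm1 bind DNA, Arg81 senses arginine and Arg82, an inositol polyphosphate kinase, stabilizes the MADS-box partners. With arginine present the complex represses some of the synthesis genes and activates CAR1 and CAR2. Mcm1 is shared with other regulons: at cell cycle genes the homeodomain repressor Yox1 binds beside it. The comparison of vectors therefore asks whether genes of a different Mcm1 partner moved when YOX1 was overexpressed. Gcn4, the activator of general amino acid control, also acts on many amino acid synthesis genes.

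The promoter letters that these regulators are known to read differed between members, and the sites below were taken from the RefSeq genome of release R64, in which the 9 genes have the same coordinates as in the deposited tables (sacCer3). The 300 bases before each coding start were searched on both strands for CCNNNNNNGG, the core of an Mcm1 site, for TGACTC, the core of a Gcn4 site, for GCCGCC, the core read by the repressor Ume6, and for TAATTA, a homeodomain core. CCNNNNNNGG stood before 7 of the 9 genes, all but ARG4 and ARG8, and in 28.7% of 6001 promoters of the same length. TGACTC stood before 6 of the 9 (ARG1, ARG4, ARG5,6, ARG8, CPA1 and CAR2), and in 7.77% of all promoters. GCCGCC stood before CAR1 alone among the members and in 5.2% of all promoters. TAATTA stood before 0 of the 9 and in 16.2% of all promoters. A match is a run of letters and not a measured binding site.

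The Mcm1 cores are shown for the members whose levels are compared most below, with the core in capitals, on the coding strand.
ARG3, chrX:268682-268711, 107 bases before the coding start: cgacttttcaCCTCTAAAGGcagtttattc
ARG5,6, chrV:295346-295375, 54 bases before: aacacatataCCACTAAAGGcaaaagaaag
ARG1, chrXV:218911-218934, 296 bases before: atttCCATTAACGGtgccgtatgg
ARG80, chrXIII:352390-352419, 203 bases before: cattcgttttCCTCTTTTGGtgatgagcag
CPA1, chrXV:882805-882834, 84 bases before: acatatctgaCCACATCTGGaaaactagct
CAR1, chrXVI:339780-339809, 154 bases before: ttagcggtagCCGCCGAGGGgtctaaagag
CAR2, chrXII:1012304-1012333, 187 bases before: gcgtcccctgCCGTTAGCGGcgctagccga

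ARG1 and CAR2 each held a second core in the window, which is not shown. Of the cores shown, those of ARG3, ARG5,6, ARG1 and ARG80 each had A or T at 5 of the 6 central bases, and those of CPA1, CAR2 and CAR1 at 4, 3 and 1. The second cores, 177 bases before ARG1 and 146 bases before CAR2, each had A or T at 3. The CPA1 match lay inside YOR302W, the short upstream reading frame in the CPA1 leader. The CAR1 match shared bases with the GCCGCC of that promoter. ARG4 and ARG8, the members without a Mcm1 core in this window, each had a Gcn4 core, shown in capitals on the coding strand. For ARG4 this strand is the minus strand of the chromosome.
ARG4, chrVIII:141566-141591, 179 bases before: agtagatgaaTGACTCactttttgga
ARG8, chrXV:58569-58594, 180 bases before: gctcgctatgTGACTCacttaaagta

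Each gene is 1 coding exon in the annotation. ARG1 (YOL058W) lies at chrXV:219211-220473, ARG8 (YOL140W) at chrXV:58759-60030 and CPA1 (YOR303W) at chrXV:882899-884134. ARG3 (YJL088W) lies at chrX:268799-269815, ARG5,6 (YER069W) at chrV:295410-298001 and ARG4 (YHR018C) at chrVIII:140011-141402 on the minus strand. CAR1 (YPL111W) lies at chrXVI:339944-340945, CAR2 (YLR438W) at chrXII:1012501-1013775 and ARG80 (YMR042W) at chrXIII:352603-353136, with a gap of 734 bases to MCM1. The kit did not keep the strand, and ARG5,6 overlaps YER068C-A by 323 bases and CAR2 overlaps YLR437C-A by 186 bases. The overlapping genes stood at 0 to 0.903 FPKM (a measure per length of transcript and per mapped fragment of the library) and at 0 to 12.4 FPKM, far below their partners.

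The labels were checked on the induced genes. YOX1 had 3862 and 3312 FPKM with the YOX1 vector at 2 h, against 30.9 and 37.5 FPKM with the control vector, and 2599 and 2458 FPKM at 4 h, against 40.8 and 40.7 FPKM. Before galactose YOX1 was already at 91.3 and 90.9 FPKM with the YOX1 vector, against 30.8 and 29.8 FPKM with the control vector. GAL1 stood at 4706 to 5567 FPKM and the damage-response gene HUG1 at 3531 to 6522 FPKM in the 8 treated libraries, against 18.4 to 31.2 and 33.0 to 45.3 FPKM in the 4 untreated libraries. Of the genes listed as deleted in this strain, LEU2 was at 0 in all 12 libraries and MET17 at 0 to 0.391 FPKM. HIS3, on the same list, stood at 41.1 to 94.0 FPKM, and the reason was not tested. The tables give no read counts. The depth implied by their error intervals was 9660000 to 18060000 fragments per library, and the shallowest members, ARG3 and ARG80, had about 118 to 876 and 121 to 321 fragments per library. In such bulk RNA, fewer cells of a kind and less RNA per cell cannot be told apart.

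Of the enzymes of arginine synthesis, 5 rose after galactose and HU with both vectors by 4 h, and ARG4 fell. CPA1 and ARG3 rose most. CPA1, the small subunit of carbamoyl phosphate synthetase, was 4.60-fold higher (95% interval 3.35 to 6.32) at 4 h than at 0 h with the YOX1 vector and 3.81-fold higher (2.77 to 5.23) with the control vector. ARG3, ornithine carbamoyltransferase, which joins carbamoyl phosphate to ornithine to give citrulline, was 4.62-fold higher (3.36 to 6.36) with the YOX1 vector and 3.56-fold higher (2.58 to 4.89) with the control vector. Folds and log2 changes come from log2(FPKM + 1) after scaling the libraries, a scale that understates the change of low genes such as ARG3. Changes were tested with limma, and those with a p under 0.05 after Benjamini-Hochberg adjustment over all genes of a comparison are named as called.

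CPA1 had 61.1 and 74.0 FPKM at 0 h, 226 and 345 FPKM at 2 h and 266 and 316 FPKM at 4 h in the YOX1 libraries. In the control libraries it had 74.6 and 72.2, 240 and 246, and 233 and 291 FPKM at the same times. All 8 treated libraries lay above all 4 untreated ones, and most of the rise was in place at 2 h. The log2 change to 2 h was 2.06 ± 0.20 (SE) with the YOX1 vector (limma adjusted p = 0.000115) and 1.73 ± 0.20 with the control vector (limma adjusted p = 0.000382). From 2 h to 4 h it was 0.14 ± 0.20 and 0.20 ± 0.20, neither called. YOR302W, which encodes the arginine attenuator peptide that stalls ribosomes upstream of CPA1, ends 56 bases before CPA1. It had 12839 to 21760 FPKM in the treated YOX1 libraries and 9020 to 16008 FPKM in the treated control libraries, against 2863 to 3696 FPKM in the untreated libraries of both. It is 78 bases long, shorter than a sequenced fragment, so its FPKM are inflated and only the change is read.

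ARG3 had 9.54 and 10.3 FPKM at 0 h, 31.0 and 42.7 FPKM at 2 h and 39.8 and 52.9 FPKM at 4 h in the YOX1 libraries. In the control libraries it had 10.5 and 10.5, 25.1 and 29.2, and 31.3 and 43.5 FPKM. Every treated library was at least 25.1 FPKM and every untreated one at most 10.5 FPKM. The log2 change to 2 h was 1.80 ± 0.20 with the YOX1 vector (limma adjusted p = 0.000237) and 1.31 ± 0.20 with the control vector (limma adjusted p = 0.00146), and to 4 h it was 2.21 ± 0.20 and 1.83 ± 0.20, both called.

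ARG1, argininosuccinate synthetase, which joins citrulline to aspartate, had 106 and 129 FPKM at 0 h, 170 and 216 FPKM at 2 h and 209 and 269 FPKM at 4 h in the YOX1 libraries. In the control libraries it had 118 and 118, 160 and 189, and 169 and 234 FPKM. The treated libraries did not overlap the untreated ones, but replicates of a treated group lay far apart. The log2 change was 0.73 ± 0.20 to 2 h and 1.12 ± 0.20 to 4 h with the YOX1 vector, both called. With the control vector it was 0.58 ± 0.20 to 2 h, which was just short of a call (limma adjusted p = 0.0509), and 0.86 ± 0.20 to 4 h, which was called (limma adjusted p = 0.00687). The control change to 2 h was called when the mean had to reach 10 FPKM (adjusted p = 0.0460), with robust estimation (0.0487) and with the spread of the compared libraries alone (0.0213). That last setting ended the call at 2 h with the YOX1 vector (0.0607). Leaving out either 2 h YOX1 library 2 or 0 h YOX1 library 1 ended the call of ARG1 at 2 h with the YOX1 vector (limma adjusted p = 0.117 and 0.104).

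The remaining synthesis members that rose act in the acetylated steps from glutamate to ornithine in the mitochondrion. ARG5,6 encodes a precursor that is cut into acetylglutamate kinase and the reductase of the next step. It had 31.7 and 32.0 FPKM at 0 h, 39.1 and 46.0 FPKM at 2 h and 48.0 and 51.8 FPKM at 4 h in the YOX1 libraries, and 33.4 and 33.2, 40.1 and 41.3, and 47.2 and 53.9 FPKM in the control libraries. It rose in steps that did not overlap, and was the only member called between 4 h and 2 h, where its log2 change was 0.31 ± 0.09 with the YOX1 vector (limma adjusted p = 0.0548, not called) and 0.40 ± 0.09 with the control vector (limma adjusted p = 0.0173). That control call was lost without either 2 h control library or without 4 h control library 2, and with the spread of the compared libraries alone (limma adjusted p = 0.123). The change with the YOX1 vector was called when the mean had to reach 10 FPKM (0.0468), and CAR1 was called lower at 4 h than at 2 h with the control vector when libraries were not scaled (0.0463). Calls between 4 h and 2 h took 11.1% of all genes with the YOX1 vector and 18.3% with the control vector. Against 0 h its log2 change was 0.43 ± 0.09 to 2 h and 0.74 ± 0.09 to 4 h with the YOX1 vector, and 0.30 ± 0.09 and 0.70 ± 0.09 with the control vector, all called. The control call at 2 h was lost without any 1 of its 4 libraries (limma adjusted p = 0.0766 to 0.106).

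ARG8, acetylornithine aminotransferase, had 30.2 and 26.1 FPKM at 0 h, 41.7 and 46.9 FPKM at 2 h and 41.2 and 40.7 FPKM at 4 h in the YOX1 libraries. In the control libraries it had 27.2 and 29.0, 34.9 and 38.3, and 36.7 and 41.2 FPKM. The YOX1 libraries were at their 4 h level by 2 h, with a log2 change of 0.66 ± 0.09 to 2 h and 0.64 ± 0.09 to 4 h. The control change was 0.39 ± 0.09 to 2 h and 0.57 ± 0.09 to 4 h, and all 4 changes were called. The control call at 2 h was lost without 0 h control library 1 or 2 h control library 2 (limma adjusted p = 0.0513 and 0.0559).

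ARG4, argininosuccinate lyase, which releases arginine in the last step, went the other way. It had 122 and 124 FPKM at 0 h, 80.9 and 81.0 FPKM at 2 h and 83.9 and 80.9 FPKM at 4 h in the YOX1 libraries, and 119 and 128, 90.3 and 86.7, and 74.5 and 81.4 FPKM in the control libraries. No treated library reached an untreated one. The log2 change to 2 h was -0.57 ± 0.07 with the YOX1 vector (limma adjusted p = 0.000278) and -0.45 ± 0.07 with the control vector (limma adjusted p = 0.00119), and to 4 h it was -0.46 ± 0.07 and -0.54 ± 0.07, both called. The levels of ARG1 and ARG4, enzymes of successive steps, overlapped in the untreated YOX1 libraries and were close in the control ones. At 4 h ARG1 averaged 246 ± 39.9 scaled FPKM and ARG4 85.0 ± 3.36 with the YOX1 vector (SD, n = 2), and 214 ± 51.7 and 82.8 ± 6.39 with the control vector.

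**Figure D1:**
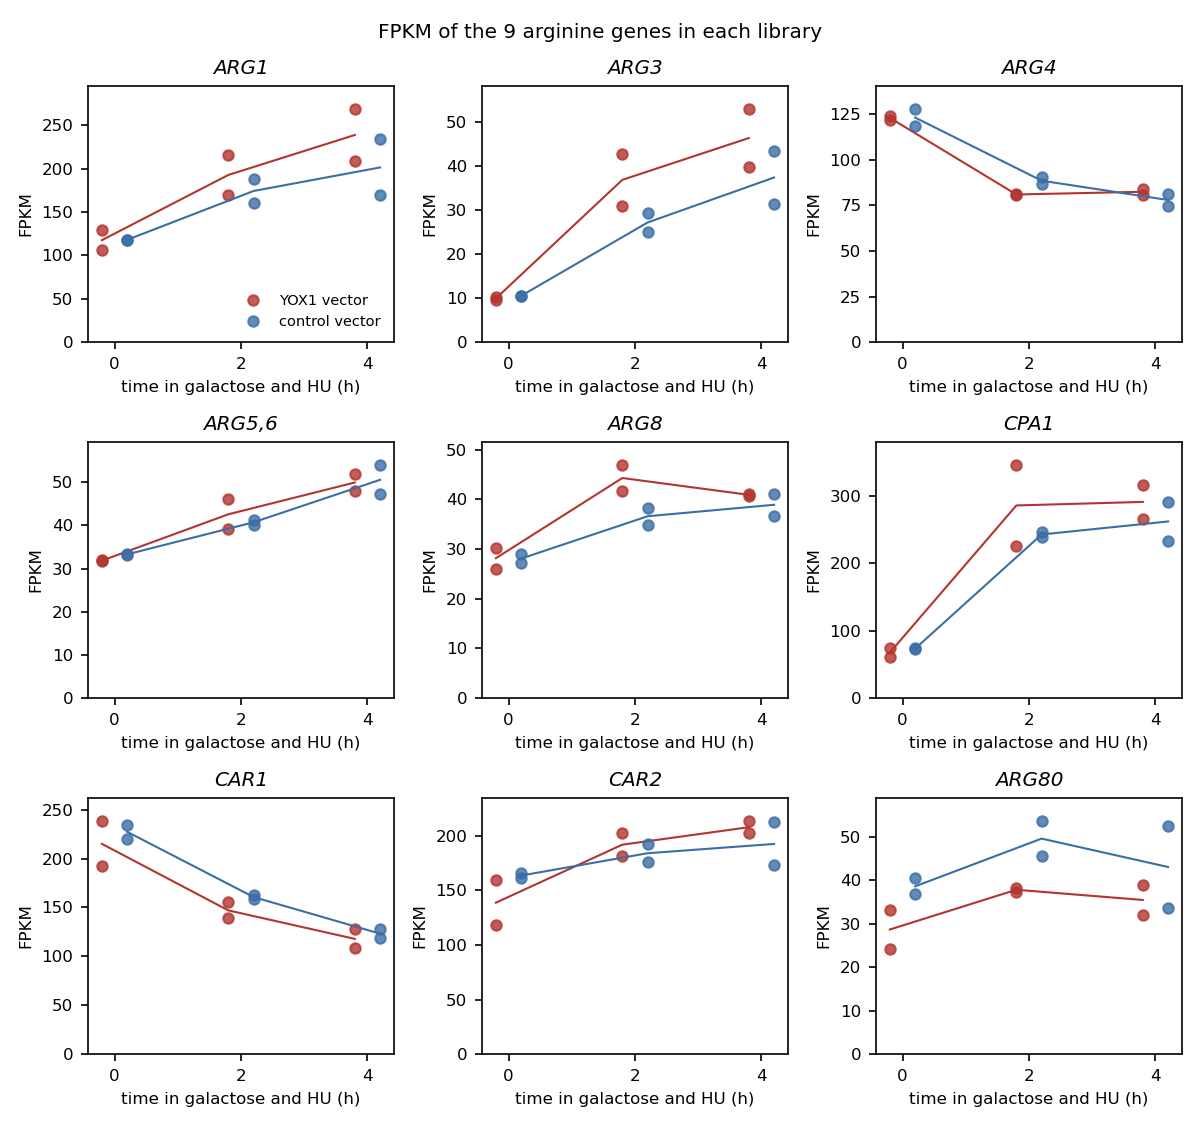
FPKM of each of the 9 genes (y axis, from 0) against time in galactose and HU in hours (x axis), with a point for each library, offset sideways by vector (red, YOX1 vector; blue, control vector), and lines through the means of the 2 libraries. CPA1 and ARG3 rise from 74.6 FPKM or less and 10.5 FPKM or less at 0 h, ARG4 and CAR1 fall, and the libraries of the vectors lie among each other at 4 h for every gene.

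The genes of arginine breakdown did not move together. CAR1, arginase, which splits arginine into ornithine and urea, fell to a level 0.596 times that of 0 h (95% interval 0.489 to 0.727) by 4 h with the YOX1 vector and 0.589 times (0.483 to 0.719) with the control vector. It had 192 and 238 FPKM at 0 h, 139 and 155 FPKM at 2 h and 108 and 128 FPKM at 4 h in the YOX1 libraries, and 235 and 220, 162 and 159, and 119 and 128 FPKM in the control libraries. The fall was present in every treated library. The log2 change was -0.51 ± 0.12 to 2 h (limma adjusted p = 0.0107) and -0.75 ± 0.12 to 4 h (0.00125) with the YOX1 vector, and -0.48 ± 0.12 and -0.76 ± 0.12 with the control vector, all called. Without 0 h YOX1 library 2 the change to 2 h with the YOX1 vector was -0.33, and the 2 h calls were lost without 2 h YOX1 library 1 or with the spread of the compared libraries alone (limma adjusted p = 0.0890) for the YOX1 vector, or without 0 h control library 1 or either 2 h control library for the control vector.

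CAR2, ornithine aminotransferase, which takes the ornithine onward to glutamate semialdehyde, had 118 and 159 FPKM at 0 h, 182 and 202 FPKM at 2 h and 202 and 213 FPKM at 4 h in the YOX1 libraries. In the control libraries it had 165 and 162, 176 and 192, and 173 and 212 FPKM. The rise was called with the YOX1 vector (log2 change 0.50 ± 0.16 to 2 h, limma adjusted p = 0.0314, and 0.71 ± 0.16 to 4 h, 0.00558) and was not called with the control vector (0.19 ± 0.16, 0.383, and 0.34 ± 0.16, 0.102). The difference of these changes between vectors was 0.31 ± 0.22 at 2 h and 0.36 ± 0.22 at 4 h and was not called (limma adjusted p = 0.729 and 0.454). The change with the YOX1 vector leaned on 0 h YOX1 library 1, the lowest of the 12 at 118 FPKM: without it the change was 0.26 to 2 h (adjusted p = 0.156) and 0.46 to 4 h (0.0227). The call at 4 h was lost when the spread came from the compared libraries alone (limma adjusted p = 0.0668), as was that at 2 h (0.142). The call at 2 h was also lost without either 2 h YOX1 library.

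ARG80, the MADS-box subunit, had 24.0 and 33.2 FPKM at 0 h, 37.4 and 38.2 FPKM at 2 h and 38.8 and 32.1 FPKM at 4 h in the YOX1 libraries. In the control libraries it had 36.7 and 40.4, 45.5 and 53.5, and 33.6 and 52.4 FPKM. Its replicates were the least alike among the members, and no change over time was called (log2 change 0.43 ± 0.23 to 2 h and 0.42 ± 0.23 to 4 h with the YOX1 vector, 0.37 ± 0.23 and 0.24 ± 0.23 with the control vector). Of the other subunits, MCM1 fell, with 92.0 and 102 FPKM at 2 h and 103 and 109 FPKM at 4 h in the YOX1 libraries and 94.4 and 102, and 98.1 and 116 FPKM in the control libraries, against 135 to 175 FPKM in the 4 untreated libraries. Its log2 change was -0.64 to 2 h and -0.43 to 4 h with the YOX1 vector and -0.63 and -0.41 with the control vector, all called. ARG81, the arginine sensor, rose slightly in all 4 comparisons (0.23, 0.19, 0.17 and 0.24 in the same order, all called). ARG82 fell by 4 h (-0.39 with the YOX1 vector and -0.45 with the control vector, both called).

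Counted over the 9 genes, 6 were called higher and 2 lower at 2 h and again at 4 h with the YOX1 vector, where 44.2% and 53.8% of all genes were called in either direction. With the control vector 4 were higher and 2 lower at 2 h and 5 were higher and 2 lower at 4 h, where 38.3% and 51.5% of all genes were called. Calls upward took 21.8% and 26.7% of all genes with the YOX1 vector and 18.6% and 25.4% with the control vector. The median log2 change of the 6 synthesis members at 4 h was 0.93 with the YOX1 vector and 0.78 with the control vector, where the median of all genes was 0.01 and 0.00. In scaled FPKM, the libraries of 7 members stood wholly above the 0 h libraries and those of 2 wholly below at 2 h with either vector, and at 4 h with the YOX1 vector. With the control vector at 4 h, where ARG80 overlapped, the numbers were 6 and 2. ARG80 counted as above at 4 h with the YOX1 vector by a margin of scaling only: its lowest 4 h library was at 32.8 and its highest 0 h library at 32.3 scaled FPKM, and the deposited values of these libraries overlapped. Of all genes, 35.9% stood above and 35.3% below at 2 h with the YOX1 vector, 36.3% and 37.1% with the control vector, and 37.2% and 37.0% (YOX1 vector) and 37.1% and 37.8% (control vector) at 4 h. The comparisons of 2 h and of 4 h share the 0 h libraries of their vector.

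**Figure D2:**
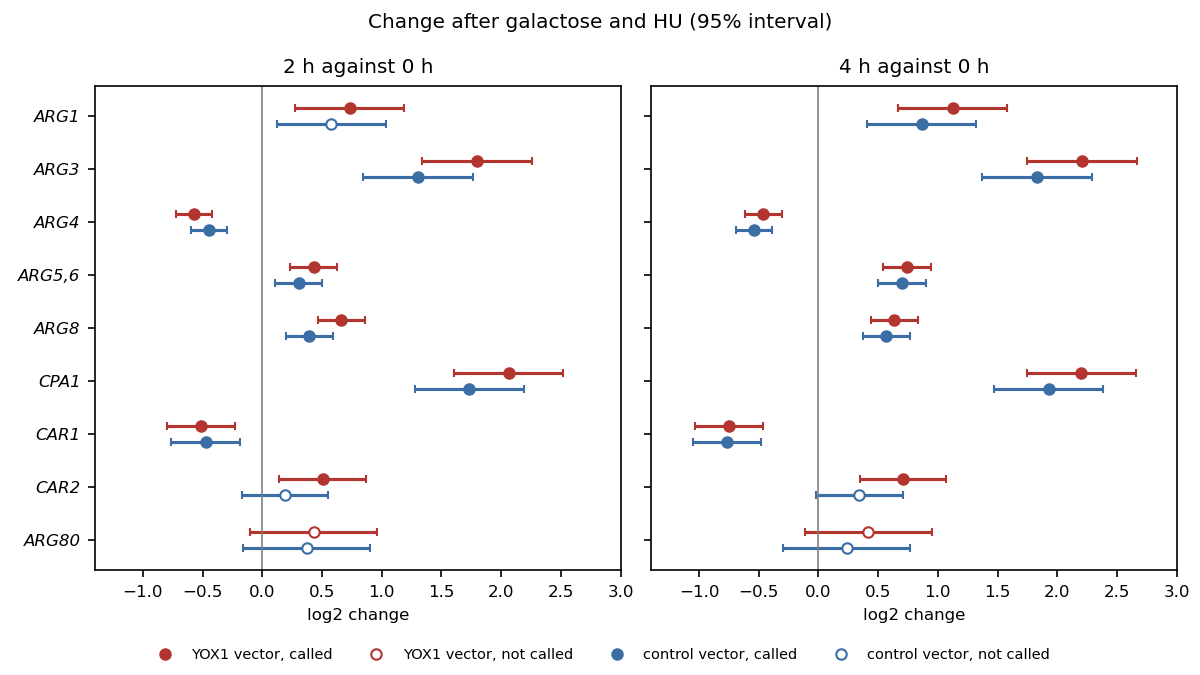
Log2 change of each gene (rows) from 0 h to 2 h (left) and from 0 h to 4 h (right), on the x axis, with 95% intervals from limma (red, YOX1 vector; blue, control vector; filled points were called at an adjusted p under 0.05). CPA1 reaches 2.20 with the YOX1 vector and 1.93 with the control vector at 4 h, ARG4 and CAR1 lie left of 0 in all 4 comparisons, and the intervals of ARG80 cross 0.

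No difference between the vectors was called for any of the 9 genes. At 0 h, 2 h and 4 h, 0 of 9 members were called between the vectors, where 0.0292%, 2.09% and 6.39% of all genes were. At an unadjusted p under 0.05 the numbers were 0, 2 and 0 of 9, where 7.69%, 11.6% and 20.4% of all genes passed. The 2 genes at 2 h were ARG8, higher by a log2 of 0.23 with the YOX1 vector (95% interval 0.04 to 0.43, limma adjusted p = 0.321), and ARG4, with -0.16 (-0.31 to -0.01, limma adjusted p = 0.387). For ARG8 the YOX1 libraries were both above the control libraries at 2 h and for ARG4 both below, and at 4 h the differences were 0.03 and 0.04.

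The YOX1 libraries stood wholly above the control libraries for 0 members at 0 h, 2 at 2 h (ARG3 and ARG8) and 0 at 4 h, where 17.5%, 22.0% and 24.5% of all genes did. They stood wholly below for 4 members at 0 h (ARG3, ARG5,6, CAR2 and ARG80), 3 at 2 h (ARG4, CAR1 and ARG80) and 0 at 4 h, where 18.7%, 24.3% and 24.3% of all genes did. All 9 genes therefore overlapped between the vectors at 4 h, as did all genes outside the 24.5% and 24.3% just given.

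The intervals give the precision that 2 libraries per group allowed. At 4 h the interval of the difference between vectors was narrowest for ARG4 (-0.11 to 0.19), ARG8 (-0.17 to 0.23) and ARG5,6 (-0.26 to 0.14). It was wider for CAR1 (-0.40 to 0.18) and CAR2 (-0.29 to 0.44). For ARG1 it ran over -0.25 to 0.67, for ARG3 over -0.19 to 0.73, for CPA1 over -0.35 to 0.57 and for ARG80 over -0.82 to 0.24, so these 4 genes are the least precisely compared. ARG80 was lower with the YOX1 vector at all 3 times, by -0.47 at 0 h, -0.41 at 2 h and -0.29 at 4 h, none called (limma adjusted p = 0.664, 0.600 and 0.536). Its YOX1 libraries lay below its control libraries at 0 h and 2 h and overlapped them at 4 h. ARG3 was higher with the YOX1 vector at 2 h (0.38, -0.08 to 0.84), with no overlap of libraries, and lower at 0 h (-0.11).

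The change over time was also compared between vectors. With limma, 0 of 9 members were called for the difference of the change to 2 h or to 4 h, against 0.804% and 2.54% of all genes, and 0 of 9 passed an unadjusted p under 0.05, against 9.25% and 16.0%. The differences at 4 h were 0.02 (CAR1) to 0.38 (ARG3), with all 9 above 0. All 9 members had lower fitted levels with the YOX1 vector at 0 h (-0.04 to -0.47), and these untreated libraries enter each of the differences of change.

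**Figure D3:**
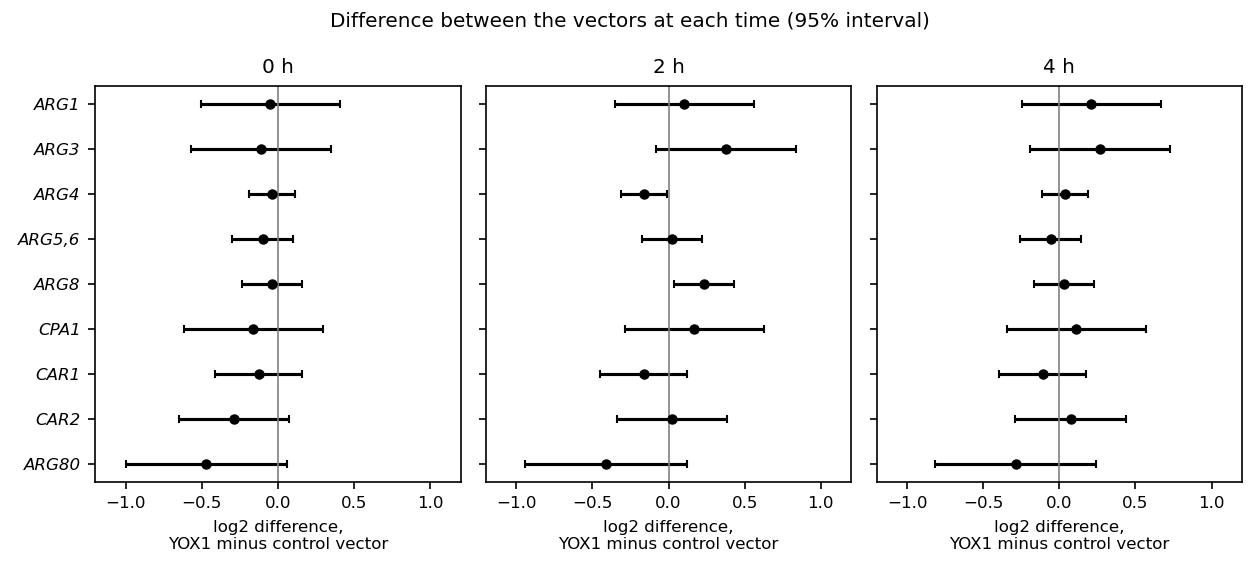
Log2 difference between the YOX1 vector and the control vector (x axis, positive where higher with the YOX1 vector) for each gene at 0 h, 2 h and 4 h, with 95% intervals from limma on 2 libraries per group. The intervals cross 0 except those of ARG4 and ARG8 at 2 h, and ARG80 lies left of 0 at all 3 times.

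The upper 5 places in the order of levels at 4 h were held by the same genes with both vectors, in scaled FPKM, which are per length. CAR1 was highest at 0 h with the YOX1 vector (206 ± 36.8, SD, n = 2) and with the control vector (223 ± 12.7), and ARG3 lowest (9.46 ± 0.761 and 10.3 ± 0.115). At 4 h CPA1 was highest (300 ± 32.4 with the YOX1 vector and 279 ± 47.7 with the control vector), followed by ARG1, CAR2, CAR1 and ARG4 with both vectors. In the YOX1 libraries these 5 neighbours stood apart, and in the control libraries CPA1, ARG1 and CAR2 overlapped in turn. ARG5,6, ARG3, ARG8 and ARG80 closed the order between 36.6 and 53.7 on average, and most neighbours among them overlapped.

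Genes of the same pathways outside the 9 were counted from the lists. At 4 h against 0 h, 53.8% of all genes were called in either direction with the YOX1 vector and 51.5% with the control vector. Of 3 other arginine synthesis genes, ARG2 (acetylglutamate synthase), ARG7 (ornithine acetyltransferase) and ORT1 (the mitochondrial ornithine carrier), ARG7 alone was called at 4 h with the YOX1 vector (log2 change 0.40) and ARG2 and ORT1 with the control vector (0.30 and 0.27). ARG7 had 61.9 and 64.4 FPKM at 4 h with the YOX1 vector, and 46.0 and 56.3 FPKM with the control vector, and the difference was not called (limma adjusted p = 0.205).

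Of 12 genes for the use and uptake of arginine, proline and urea, 5 were called higher and 4 lower at 4 h with either vector. Calls upward took 26.7% of all genes with the YOX1 vector and 25.4% with the control vector. In the counts that follow, rose and fell mean such calls. PUT1, proline oxidase, had the largest rise in this list, with log2 changes of 2.28 with the YOX1 vector and 1.97 with the control vector. The general amino acid permease GAP1 fell (-0.90 and -1.02), and CAN1, the arginine permease, was at 0.03 and 0.01, not called. Of 10 other regulators 3 rose and 1 fell with the YOX1 vector and 2 rose and 1 fell with the control vector, with GCN4 at 0.28 and 0.33, both called. Of 30 other amino acid synthesis genes 14 rose and 9 fell with the YOX1 vector and 10 rose and 10 fell with the control vector, with medians of 0.20 and -0.07. Between vectors limma called 0 of the 28 genes outside this last list, subunits included, at 0 h, 2 h or 4 h. At an unadjusted p under 0.05 the numbers were 1, 4 and 7 of 28, where 7.69%, 11.6% and 20.4% of all genes passed. Of the 30, HIS4 (0.46) was higher with the YOX1 vector at 4 h and ARO3 (-0.45), LYS20 (-0.40) and LYS21 (-0.31) were lower, all called. Of all genes, 6.39% were called in that comparison.

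**Figure D4:**
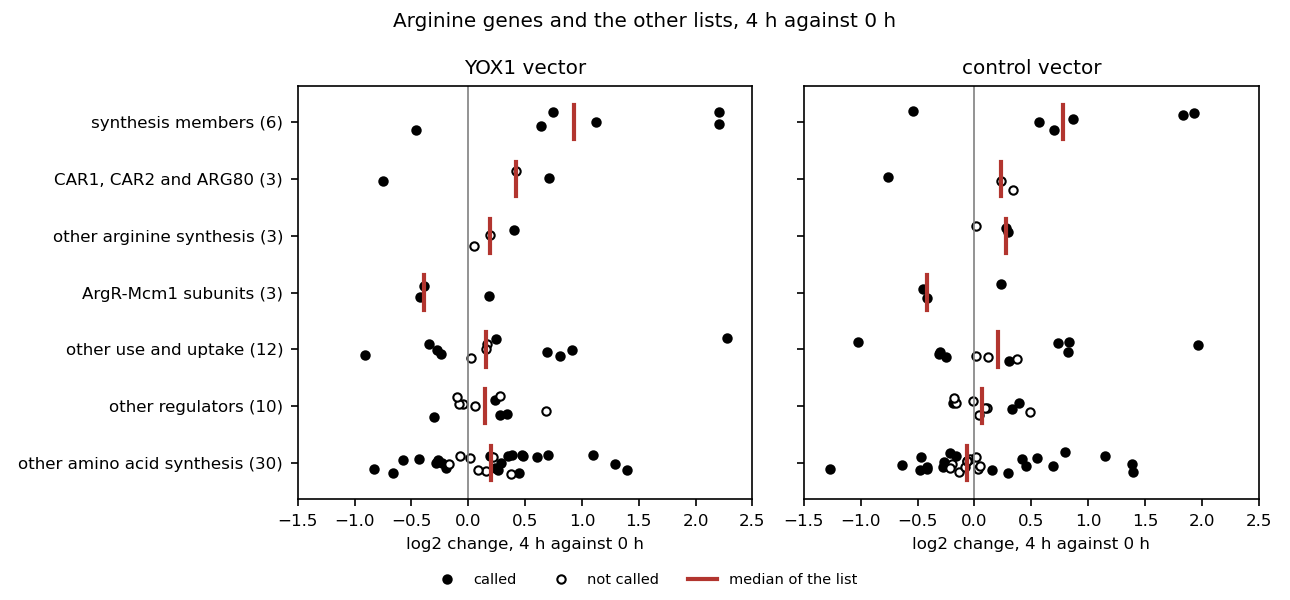
Log2 change from 0 h to 4 h (x axis) of each gene in the lists of the text (rows, number of genes in brackets) with the YOX1 vector (left) and the control vector (right), with filled points for called genes and a red bar at the list's median. The 6 synthesis members have medians of 0.93 and 0.78, with ARG4 alone left of 0, and the 30 other amino acid synthesis genes spread on both sides of 0.

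Across the 12 libraries, the genes whose scaled log2 levels were most like the mean profile of the 6 synthesis members were LYS1 (Pearson r = 0.987), HOR2 (0.987), LCP5 (0.986) and POP3 (0.984), out of 6106 genes whose mean reached 10 FPKM. ARG4, itself part of that profile, ran against it (r = -0.899), as did CAR1 (-0.867), and CAR2 ran with it (0.893). ARG80 was at 0.530. CAR1 and CAR2 ran against each other (r = -0.627). These values describe 12 libraries that share vector, time and treatment, and much of each follows from the step between untreated and treated libraries.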

How the data were processed

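RNA-seq was run on 12 libraries, 2 for each of 6 groups of vector and time taken from the labels. Per the study's methods, ribosomal RNA was removed, TruSeq libraries were sequenced, TopHat2 placed the reads on sacCer3, and Cufflinks, Cuffmerge and Cuffdiff ran at default settings (versions not given in the sources used here). The authors deposited FPKM, with intervals, for 7126 genes. FPKM are estimates and the tables hold no read numbers, so no count test was run and fragment numbers derived from the intervals are approximate.

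Libraries were scaled by the median, over 6585 genes, of the ratio to the gene's geometric mean (factors 0.932 to 1.07), and 1 was added before log2. Values of single libraries are deposited FPKM, and means are of scaled FPKM. Tested were 6844 genes whose mean reached 1 FPKM, all with a completed estimate in every library, and 43 genes lacking one somewhere were left out. One limma 3.58.1 model (R 4.3.3) with 6 group means, the trend on and robust estimation off gave 11 contrasts, two-sided, with Benjamini-Hochberg adjustment within each and 6 residual and 2.04 prior degrees of freedom. The model was also run on simulated data, for the comparison of vectors at 4 h only, and that outcome is not given here. Pseudocount, filter, scaling, source of the spread, replicate block, trend, robust estimation and each library were varied. Identifiers of 6030 genes matched RefSeq R64, and 99.2% had identical coordinates.

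The 9 genes and the lists were chosen with earlier results of these data known. The rule named the 9 genes, YOX1, GAL1, HUG1, the other ArgR-Mcm1 subunits and list genes called between vectors. Other list genes and neighbours were named after their values were seen. 1 gene of the lists is not reported here, and the counts leave it out.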

Additional observations from a re-analysis of the deposited data

How the results depend on the processing

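Each setting was changed alone over 99 results and gave 1359 values. No member was called between the vectors, or in the difference of changes, under any of them. Of 30 called changes, 8 lost their call at least once and 0 changed sign.

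When a comparison's own libraries alone set the spread, the members called at 2 h against 0 h with the YOX1 vector were 5, against 8, and those at 4 h against 2 h with the control vector were 0, against 1. At 4 h against 2 h with the YOX1 vector 1 member was called, against 0, when the mean had to reach 10 FPKM and with the replicate block. With the control vector 2 were called, against 1, without scaling and with the replicate block. Under that block ARG1 was also called at 2 h with the control vector (adjusted p = 0.00573), and at 4 h against 2 h it called ARG5,6 with the YOX1 vector (0.0299) and ARG3 with the control vector (0.0261). It changed no other call of a member. The deviations of same-numbered libraries correlated at -0.247 to 0.280 over 15 pairs of groups, with 4 above 0.1 and not all. Between the vectors the correlation was 0.040 at 0 h, 0.151 at 2 h and 0.280 at 4 h. The labels do not say what a number marks, so the numbers were not taken as pairs.

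Leaving out 1 library at a time, where the lone library of a group is assumed to vary like the others, gave 3 to 5 members called at 2 h with the control vector (against 6; 3 without 0 h control library 1 or 2 h control library 2) and 0 to 1 at 4 h against 2 h with that vector. The signs that changed belonged to uncalled changes (adjusted p of at least 0.623). Between vectors at 0 h the log2 differences ran over -0.22 to 0.12 for ARG1, -0.081 to 0.0031 for ARG4, -0.11 to 0.039 for ARG8 (0.0010 without scaling), -0.31 to 0.057 for CAR1 and -0.33 to 0.00086 for CPA1. At 2 h they ran over -0.048 to 0.26 for ARG1, -0.074 to 0.12 for ARG5,6, -0.036 to 0.084 for CAR2 and -0.12 to 0.46 for CPA1. At 4 h they ran over -0.038 to 0.46 for ARG1, -0.039 to 0.12 for ARG4, -0.17 to 0.052 for ARG5,6, -0.066 to 0.13 for ARG8, -0.62 to 0.042 for ARG80, -0.089 to 0.24 for CAR2 and -0.063 to 0.29 for CPA1. The difference of the 2 h change ran over -0.017 to 0.33 for ARG1, -0.19 to 0.31 for ARG80 and -0.22 to 0.14 for CAR1. That of the 4 h change ran over -0.067 to 0.15 for ARG5,6, -0.030 to 0.16 for ARG8, -0.15 to 0.51 for ARG80 and -0.17 to 0.20 for CAR1. From 2 h to 4 h the change with the YOX1 vector ran over -0.090 to 0.040 for ARG8, -0.16 to 0.14 for ARG80 and -0.15 to 0.43 for CPA1, and with the control vector over -0.47 to 0.19 for ARG80 and -0.010 to 0.32 for CAR2. From 0 h to 4 h with the control vector it ran over -0.093 to 0.56 for ARG80.

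Over all genes, the spread from only the libraries compared called 10, 54 and 76 genes between vectors at 0 h, 2 h and 4 h, against 2, 143 and 437. It called 1839 against 3027 at 2 h with the YOX1 vector, 270 against 761 and 153 against 1253 at 4 h against 2 h with the YOX1 and the control vector, and 24 against 55 and 103 against 174 for the differences of change. A mean of at least 10 FPKM left 1 of 2 calls between vectors at 0 h. Leaving out 1 library gave 2 to 10, 62 to 102 and 225 to 256 calls between vectors at 0 h, 2 h and 4 h, 272 to 328 and 601 to 889 at 4 h against 2 h with the YOX1 and the control vector, and 13 to 66 and 90 to 224 for the differences of change. Without scaling the median of all genes at 4 h with the control vector lay at -0.11. The share of calls that were higher was then 36.6% against 49.6% at 4 h with the YOX1 vector, 35.0% against 49.2% with the control vector, 26.2% against 53.2% and 24.8% against 53.2% at 4 h against 2 h, and 47.6% against 30.7% between vectors at 4 h. With 2 libraries per group, precision between vectors is as the stated intervals show. The depth is approximate, and FPKM of overlapping genes depend on how the reads were divided. Causes of these differences between settings were not tested.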

Other observations

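The libraries numbered 2 stood higher than those numbered 1 for several members after treatment. In all 4 treated groups ARG1, ARG3, ARG5,6, CPA1 and CAR2 were higher in library 2, and 0 of the 9 members were lower in all 4. Of all 6844 genes tested, 8.81% were higher and 8.68% lower in library 2 in all 4 groups. For ARG3 the log2 difference of library 2 from library 1 was 0.42 at 2 h and 0.37 at 4 h with the YOX1 vector and 0.20 and 0.49 with the control vector. For CPA1 it was 0.57 and 0.22 with the YOX1 vector and 0.02 and 0.35 with the control vector. In the untreated libraries ARG3 differed by 0.15 with the YOX1 vector and -0.02 with the control vector. These 5 genes were noticed after their values were seen, and whether the numbers mark a shared day or culture is not given in the labels.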
